A study of Mus musculus with 13 samples.

Results

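The liver arrays of this study carry a serial number in brackets in their labels, and the 6 arrays numbered 9 to 14 (called late here) were set against the 7 numbered 1 to 8 (called early), with the treatment group as a term in the fit. All 13 arrays of the series belong to one of these sets. The late set holds CANA replicates 3 and 4, HFD replicates 3 and 4 and CR replicates 4 and 5. The early set holds CANA replicates 1 and 2, HFD replicates 1 and 2 and CR replicates 1, 2 and 3. The boundary between the sets was chosen by measured values, namely the first principal component (18.7% of the variance, -19.5 to 4.27 over the early and 3.34 to 17.7 over the late arrays) and the small nucleolar RNA values of these arrays. The late minus early values, and the counts of probe sets past a threshold in that fit, are therefore given as a description and not as a test. The labels do not say what the serial number counts (serial number 7 is not analysed here), nor what a second bracketed number counts, so handling, array processing and differences between cohorts of mice cannot be told apart.

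All arrays came from liver of male C57Bl/6J mice fed a 60% fat diet for 4 weeks from the age of 6 weeks. In the next 4 weeks the HFD group (4 arrays) stayed on that diet, the CANA group (4 arrays) ate it with canagliflozin at 25 to 30 mg/kg, and the CR group (5 arrays) was restricted by 15 to 30% in calories to match the weight of the CANA mice. Canagliflozin inhibits SGLT2, the glucose transporter of the kidney tubule. No group on a standard diet is among the arrays analysed here, so every array shares the period of high-fat feeding. The labels do not say that each array came from a separate mouse, so a test measures only the spread between these samples.

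Small nucleolar RNAs (snoRNAs) are short noncoding RNAs of the nucleolus that direct chemical changes of ribosomal RNA. Those with C and D boxes guide 2′-O-methylation, those with H and ACA boxes guide the isomerisation of uridine to pseudouridine, and the related scaRNAs act on spliceosomal RNA in the Cajal body. Most mammalian snoRNAs lie in introns of host genes and are released when the host transcript is spliced. Cholesterol synthesis is controlled by SREBP-2, a membrane-bound transcription factor that INSIG proteins hold in the endoplasmic reticulum when sterols are plentiful. Liver is a main site of this pathway, and feeding, fasting and time of day are known to alter it.

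The deposited values are log2 intensities. Array medians lay between 4.07 and 4.13 and pairs of arrays correlated at 0.985 to 0.992 across probe sets. The 23521 probe sets with 1 gene symbol had a median late minus early difference of -0.01 on the log2 scale, with 11266 higher and 12255 lower in the late set. At a limma adjusted p under 0.05, 15 probe sets were called higher (0.0638% of those tested) and 12 lower (0.051%), together 27 (0.115%) from 23 genes. These shares give the background for the counts below, and since the boundary was drawn from these values nothing is read from them. Of the 12 called lower, 9 were snoRNA genes, and the other 3 were Ep400, Cul5 and Deptor. Of the 15 called higher, 6 lay on the Y chromosome (4 probe sets of Sly, with equal values, and 2 of Gm20877) and 6 had a mean below 3.91, the 40th percentile used here as the limit of dim signal. The probe sets nearest to the threshold were Snord52 (-1.07) and Deptor (-0.39) inside it, and Ildr2 (0.71) and Ly6k (-0.45) outside it. The count moved with single arrays. It was 137 without CR replicate 2 and 43 without CR replicate 5. It was 5 without CANA replicate 1 or CANA replicate 4, 6 without HFD replicate 1 or HFD replicate 2, 8 without CANA replicate 3, 9 without HFD replicate 3, 13 without CR replicate 3 and 16 without CR replicate 4 or HFD replicate 4.

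The C/D box snoRNAs were lower in the late arrays as a class. All 47 measured C/D probe sets had a negative late minus early difference, with a median of -0.64 on the log2 scale and a range from -1.66 (Snord35b) to -0.13 (Snord43). The same median over all probe sets was -0.01. Of the 47, 5 were called lower, 9 lay lower without overlap in each treatment group (against 0.736% of all probe sets), and in 7 every late array lay below every early array (against 0.204%). The snoRNA values helped to place the boundary, so these counts support nothing. The mean deviation of the class from the gene means ran from -0.57 to -0.17 over the 6 late arrays, with a median of -0.30. It ran from -0.21 to 0.70 over the 7 early arrays, with a median of 0.35. The sets thus overlapped for the class mean, because early CR replicate 2 (-0.21) lay among the late arrays. Early CANA replicate 2 (-0.14) lay just above the highest of them. On either side of the boundary, the array numbered 8 (CR replicate 3) stood at 0.04 and the array numbered 9 (CANA replicate 3) at -0.29.

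**Figure D1:**
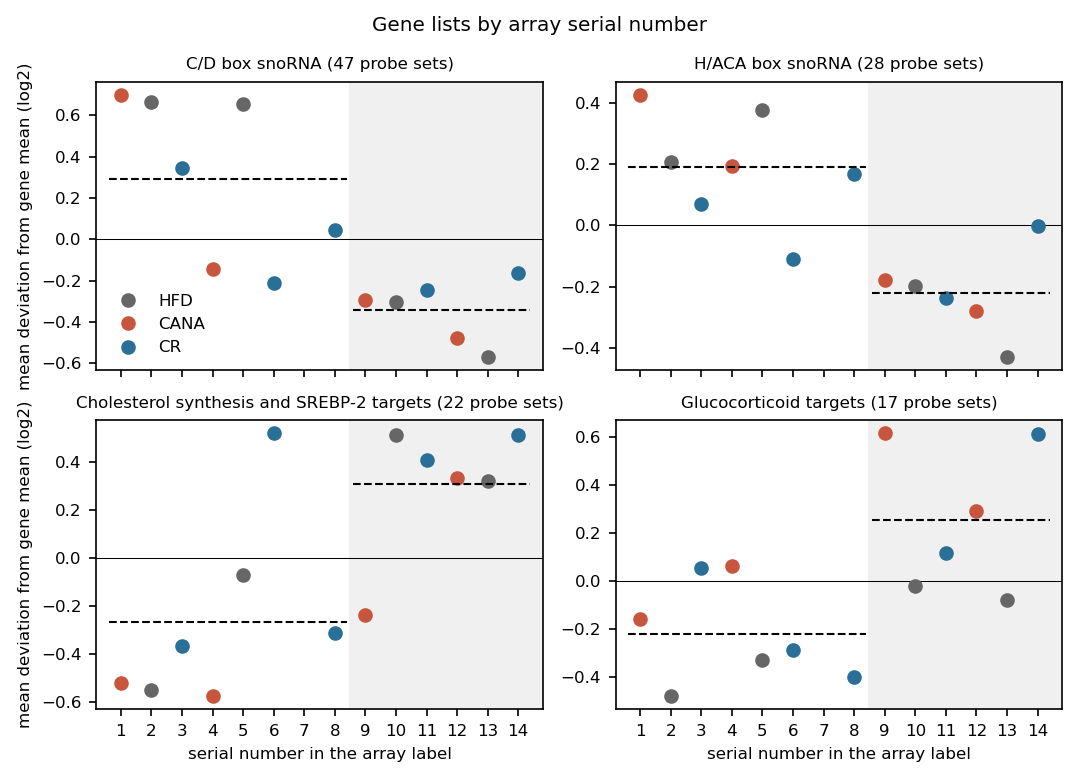
Mean deviation from each gene's mean over all 13 arrays (log2) for 4 gene lists, against the serial number in the array label. Points are arrays coloured by treatment group, the shaded part holds the late set, and dashed lines give the mean of each set. The C/D box snoRNAs average 0.29 in the early set and -0.34 in the late set, and the cholesterol list -0.27 and 0.31.

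The H/ACA box snoRNAs showed a smaller difference. Of 28 probe sets, 23 were lower in the late set, with a median of -0.38 and a range from -1.58 (Snora69) to 0.41 (Snora31). Of these 28, 4 were called lower. The class mean ran from -0.43 to -0.00 over the late arrays and from -0.11 to 0.43 over the early arrays. The scaRNAs did not move as one: 3 of 6 probe sets were lower and 3 higher, with a median of -0.18. Scarna10 (-0.40) and Scarna17 (-0.37) were among the lower ones, and the list median was 0.01 with 1 probe set per gene.

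Snord49a and Snord49b, which lie on chromosome 11 in the same host transcript, did not overlap between the sets. Snord49a had a lowest, median and highest value of 7.59, 8.11 and 8.38 in the late arrays and of 8.55, 9.06 and 9.51 in the early arrays. Its difference was -1.03 (SE 0.15), a 2.04-fold lower level. Every late array lay below every early array, HFD replicate 4 lowest and HFD replicate 2 highest. Snord49b ran from 10.13 through 10.59 to 10.62 in the late and from 10.94 through 11.20 to 11.30 in the early arrays, a difference of -0.66 (SE 0.10). Snord65, from the same host transcript, differed by -1.08, and there early and late arrays overlapped.

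Of the other C/D snoRNAs named by the rule, Snord89 (chromosome 1) had values of 7.56, 8.01 and 8.14 in the late arrays and of 8.21, 8.72 and 8.97 in the early arrays, a difference of -0.74 (SE 0.12). Snord55 (chromosome 4) had values of 10.18, 10.65 and 10.95 against 10.98, 11.25 and 11.60, a difference of -0.69 (SE 0.12). Both showed no overlap of the sets, with HFD replicate 4 the lowest late array in each. Snord52 (chromosome 17) was dimmer, at 3.55, 3.81 and 4.43 in the late and 4.00, 5.10 and 5.43 in the early arrays. Its sets overlapped, as early CR replicate 2 lay at 4.00.

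Among the H/ACA snoRNAs, Snora34 (chromosome 15) had late values of 8.10, 8.58 and 8.72 and early values of 8.67, 10.02 and 10.41, a difference of -1.20 (SE 0.20). The sets met at early CR replicate 3 (8.67), while within each treatment group the late arrays lay below the early ones. Snora74a (chromosome 18) ran from 4.53 through 5.42 to 5.57 in the late and from 5.67 through 6.46 to 6.81 in the early arrays, a difference of -1.16 (SE 0.20). Snora28 (chromosome 12) had late values of 7.39, 7.69 and 7.98 and early values of 8.11, 8.44 and 8.98, a difference of -0.85 (SE 0.15). Neither of these overlapped between the sets. Snora15, which is no called gene, had a difference of -1.14 and overlapped. Snora33 was read by a pair of probe sets that disagreed in size. The less bright one, with a mean of 4.92, was called at -0.67. The brighter one, with a mean of 12.55, differed by -0.14.

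The genes that carry the snoRNAs did not show the same difference. RefSeq places 65 of the 81 matched snoRNA and scaRNA probe sets inside a host gene that was also measured. These 65 had a median of -0.47, and their 49 host genes a median of -0.03, with 28 hosts lower and 21 higher. In 57 of the 65 the snoRNA difference lay below that of its host, and across the 65 pairs, which share arrays and some hosts, the Pearson r of the differences was 0.08. The host of Snord49a, Snord49b and Snord65, 2410006H16Rik, differed by 0.06. Snord16a differed by -0.97 and its host Rpl4, a ribosomal protein gene, by 0.10. Snord22 differed by -0.99 and its noncoding host Snhg1 by -0.10. Snora69 differed by -1.58 and its host Rpl39 by -0.09, whereas Snora31 was 0.41 higher and its host Tpt1 0.17 lower (-0.17).

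The proteins that bind snoRNAs in the mature particle, and those that assemble it, had a median of -0.02 over 20 probe sets, 12 of them lower. Of the 67 probe sets of a list of known host genes, 43 were lower, with a median of -0.09. Across the 47 C/D probe sets, which share arrays, the Pearson r of the difference was -0.01 with gene length and 0.01 with the mean level, and across the 28 H/ACA probe sets it was -0.21 and -0.24. The C/D median was -0.67 for the 24 probe sets with a mean of 8 or more and -0.63 for the others. The H/ACA median was -0.63 for the 9 probe sets with a mean of 8 or more and -0.25 for the others.

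Other short RNAs differed by class. Of 7 probe sets for other small structured RNAs, 6 were lower in the late arrays, with a median of -0.17. Without 1 array that median ran from -0.32 (CR replicate 4) to -0.070 (HFD replicate 4), and it was -0.27 without CR replicate 3, -0.10 without CANA replicate 3, -0.10 without HFD replicate 2 and -0.090 without CANA replicate 1. Rny1, a Y RNA that binds the Ro60 protein, had late values of 6.79, 7.28 and 7.52 and early values of 6.85, 8.33 and 9.10, a difference of -0.89. The early arrays of Rny1 fell apart widely, with CANA replicate 2 at 6.85 among the late values and HFD replicate 2 highest. Rny3 differed by -0.81, Rpph1, the RNA of ribonuclease P, by -0.33 (-0.20 without CANA replicate 1), and Rn7sk, the RNA that restrains the elongation factor P-TEFb, by -0.04. Of 5 spliceosomal snRNA probe sets, 4 were lower, with a median of -0.05 and a lowest value of -0.84. Of these 5, 3 lay at or above the dim limit. RefSeq snRNA genes at or above that limit were lower in 5 of 6, with a median of -0.24. The 511 microRNA probe sets had a median of -0.01, with 266 lower and 245 higher. Among genes at or above the dim limit, RefSeq snoRNA genes were lower in 67 of 72, with a median of -0.55. MicroRNA genes at or above that limit were lower in 82 of 141, with a median of -0.02. The median gene lengths were 88.5 and 85 bases. The whole microRNA list had a median level of 2.99, against 8.16 for the C/D and 6.71 for the H/ACA snoRNAs. A part of length or level in the difference between these classes was not tested. Protein-coding genes at or above the dim limit had a median of -0.01 over 12999 probe sets.

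**Figure D2:**
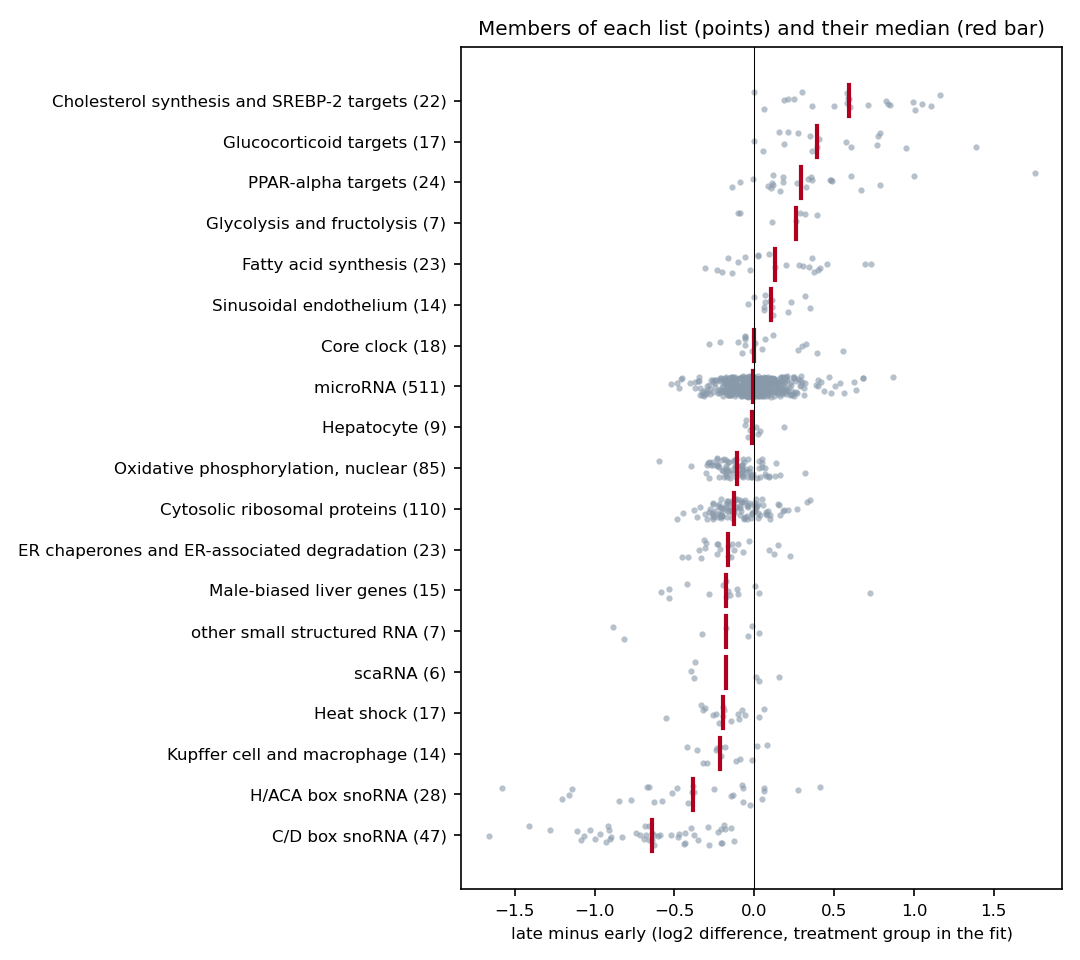
Late minus early difference (log2, x axis) of every member of 19 gene lists (y axis, with the number of probe sets); points are probe sets and red bars medians. The C/D box snoRNAs lie wholly below 0 with a median of -0.64, the microRNAs are centred at -0.01, and the cholesterol list has a median of 0.59.

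The 3 genes called lower that are no snoRNA each had a probe set that behaved differently. Ep400 (chromosome 5), which encodes a subunit of a chromatin-remodelling complex, had late values of 8.19, 8.52 and 8.67 and early values of 8.86, 9.32 and 9.60, a difference of -0.81 (SE 0.10) without overlap. A second Ep400 probe set differed by 0.06. RefSeq places 1 snoRNA gene inside Ep400. Cul5 (chromosome 9), a scaffold of ubiquitin ligases, ran from 5.82 through 5.91 to 6.08 in the late and from 6.09 through 6.46 to 6.73 in the early arrays, a difference of -0.55. Its second probe set showed 0.00, and 1 RefSeq snoRNA gene, Gm22304, lies inside Cul5. Deptor (chromosome 15), an inhibitor of mTOR, was called at -0.39, and its brighter probe set was higher by 0.27, so no direction is given for Deptor. No RefSeq snoRNA gene lies inside it. Which transcripts these probe sets read was not tested.

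Cholesterol synthesis stood highest among the lists. Of 22 measured genes of the pathway and of SREBP-2 control, 21 were higher in the late arrays, with a median difference of 0.59 on the log2 scale against -0.01 for all probe sets. No member was called in limma (2549 probe sets of the whole table had an unadjusted p under 0.05), and 3 members, Hsd17b7, Dhcr7 and Pmvk, lay higher without overlap in each treatment group (against 0.859% of all probe sets). The list mean ran from -0.23 to 0.52 over the late arrays, with a median of 0.37. Over the early arrays it ran from -0.57 to 0.52, with a median of -0.37. A single array of each set lay on the other side. Early CR replicate 2 had the highest list mean of all 13 (0.52), and late CANA replicate 3 stood at -0.23. The array numbered 8, on the early side of the boundary, was at -0.31.

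The promoters of 18 of the 22 members are in the RefSeq table of build GRCm38.p6, and 3 are shown because their genes either differed most (Nsdhl) or hold the core of the sterol regulatory element (Hmgcs1 and Srebf2). Each run is the 250 bases before the annotated start, on the plus strand, with CCAAT or its complement ATTGG and TCACCCC or its complement in capitals. Nsdhl is chrX:72918271-72918520, Hmgcs1 chr13:119690101-119690350 and Srebf2 chr15:82147019-82147268.
Nsdhl: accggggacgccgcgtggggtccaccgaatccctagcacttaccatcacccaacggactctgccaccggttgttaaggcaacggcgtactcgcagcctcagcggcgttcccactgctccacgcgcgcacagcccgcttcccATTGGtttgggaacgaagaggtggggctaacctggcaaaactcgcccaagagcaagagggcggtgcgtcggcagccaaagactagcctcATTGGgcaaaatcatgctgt
Hmgcs1: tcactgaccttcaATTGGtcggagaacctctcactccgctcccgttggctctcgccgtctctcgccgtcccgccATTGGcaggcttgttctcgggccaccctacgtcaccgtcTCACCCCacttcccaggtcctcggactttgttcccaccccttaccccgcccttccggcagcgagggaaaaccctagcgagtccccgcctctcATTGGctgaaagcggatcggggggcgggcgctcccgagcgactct
Srebf2: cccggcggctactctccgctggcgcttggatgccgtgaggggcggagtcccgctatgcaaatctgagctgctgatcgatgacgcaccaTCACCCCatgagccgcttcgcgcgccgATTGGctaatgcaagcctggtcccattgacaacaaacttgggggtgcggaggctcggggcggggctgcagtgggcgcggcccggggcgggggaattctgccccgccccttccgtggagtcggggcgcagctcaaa
In such windows, searched on both strands, CCAAT was found in 18 of the 18 members and in 37.5% of 27025 genes. The CCAAT box is a site known to bind NF-Y. TCACCCC was found in Hmgcs1 and Srebf2 (2 of 18) and in 4.91% of genes. GGGCGG, the GC box, was found in 15 of 18 and in 35.4% of genes. Matches were counted also where motifs overlap, and they say nothing about binding in these livers.

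Along the pathway, the early steps and the late steps both differed. Hmgcs1, which makes HMG-CoA, was 1.01 higher. Fdps, the farnesyl diphosphate synthase, had late values of 7.64, 8.91 and 9.16 and early values of 6.80, 7.78 and 9.08, a difference of 0.99 (SE 0.23). Late CANA replicate 3 (7.64) lay among the early values and early CR replicate 2 (9.08) among the late ones. Sqle, the squalene epoxidase, was 1.05 higher and Cyp51, the lanosterol demethylase, 1.11 higher.

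Nsdhl, a sterol dehydrogenase on the X chromosome, had late values of 9.07, 9.98 and 10.06 and early values of 7.97, 8.65 and 10.13, a difference of 1.16 (SE 0.23). It was the largest difference of the list, and again early CR replicate 2 lay with the late arrays and late CANA replicate 3 below the others of its set. Tm7sf2, a sterol reductase, was 0.59 higher (SE 0.12). Dhcr7, which catalyses the last step, had late values of 8.04, 8.71 and 8.83 and early values of 7.77, 7.92 and 8.71, a difference of 0.60 (SE 0.12). Within each treatment group its late arrays lay above the early ones. Rdh11, a retinol dehydrogenase controlled by SREBPs, was 0.82 higher (SE 0.18).

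Of the regulators, Srebf2 differed less than the list median of 0.59, and Insig1 lay near that median. Srebf2, the gene of SREBP-2, had late values of 7.46, 7.81 and 7.86 and early values of 7.10, 7.35 and 7.79, a difference of 0.36 (SE 0.10). Insig1, its retention factor and itself a target, ran from 10.40 through 10.59 to 11.02 in the late and from 9.68 through 10.02 to 10.78 in the early arrays, a difference of 0.58 (SE 0.14). In both, early CR replicate 2 lay among the late values, and for Srebf2 late CANA replicate 3 lay among the early ones. Ebp, the sterol isomerase, was the 1 member below 0, at -0.00.

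**Figure D3:**
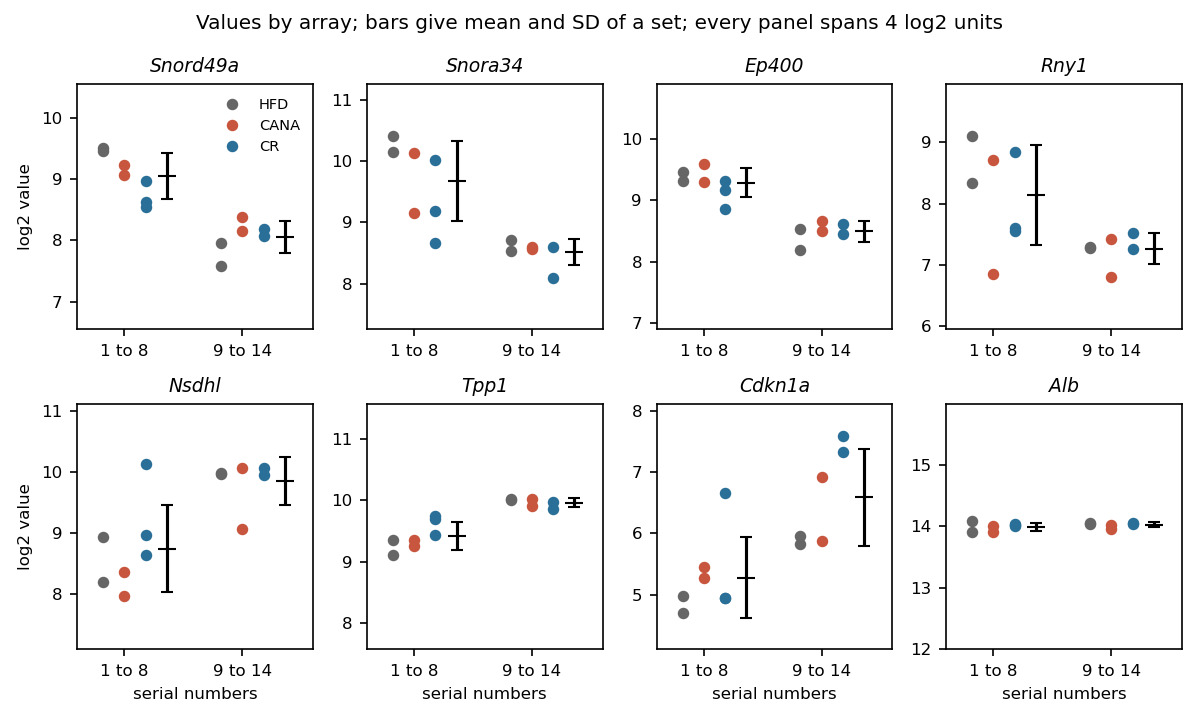
Log2 values of 8 genes in the arrays numbered 1 to 8 and 9 to 14, coloured by treatment group; black bars give the mean and SD of the 7 early and the 6 late arrays, and every panel spans 4 log2 units. Snord49a, Ep400 and Tpp1 do not overlap between the sets, Nsdhl overlaps through early CR replicate 2 (10.13), and Alb keeps the same level.

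Fatty acid synthesis, driven mainly by SREBP-1c, was mixed. Of 23 probe sets, 15 were higher, with a median of 0.13, which was 0.064 without HFD replicate 1 or HFD replicate 3. Acss2, the cytosolic acetyl-CoA synthetase, was 0.69 higher, Me1, the malic enzyme, 0.73 and Slc25a1, the citrate carrier, 0.34. Fads1, the delta-5 desaturase, ran from 11.48 through 11.52 to 11.69 in the late and from 10.91 through 11.19 to 11.37 in the early arrays, without overlap, a difference of 0.40. Fasn, the fatty acid synthase, differed by 0.03, with either sign when 1 array was left out (-0.066 to 0.14). Srebf1 differed by -0.20, by -0.12 without CANA replicate 1 and by -0.088 without CANA replicate 3. Fasn was lower by CANA arrays alone (-0.42) and higher by HFD arrays alone (0.61).

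Targets of PPAR-alpha, the fatty acid sensor of liver, were higher in 21 of 24 probe sets, with a median of 0.30, which was 0.18 without HFD replicate 3. It was 0.54 with the replicate number as a block, 0.17 with the serial number and 0.066 with the second number in place of the set, and 0.19 within CANA. Cyp4a14, a fatty acid hydroxylase, ran from 8.10 through 9.86 to 12.03 in the late and from 5.40 through 8.43 to 10.69 in the early arrays, a difference of 1.76 (SE 0.55) with wide overlap. Acot3 and Acot2, both acyl-CoA thioesterases, were 1.00 and 0.79 higher. The highest late value of all 3 genes came from CANA replicate 3 and the highest early value from CANA replicate 2. None of the 24 was called.

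Glucocorticoid targets were higher in 16 of 17 genes, with a median of 0.39. Cdkn1a, the inhibitor p21 of cyclin-dependent kinases, had late values of 5.83, 6.44 and 7.59 and early values of 4.70, 4.98 and 6.65, a difference of 1.39 (SE 0.26). The late arrays lay above the early ones within each treatment group, with CR replicate 5 highest, and early CR replicate 1 (6.65) lay above several late arrays of other groups. Dusp1, a phosphatase of MAP kinases, was 0.78 higher, Ddit4, an inhibitor of mTORC1, 0.77, Lcn2, a siderophore-binding acute phase protein, 0.95 and Per1, a clock gene induced by glucocorticoids, 0.39. The core clock list held no common difference, with 9 probe sets higher and 9 lower and a median of -0.00. Arntl, the positive arm of the clock, differed by 0.02 in HFD, 0.45 in CANA and 1.08 in CR. Its difference over all arrays was 0.55, and 0.29 without CR replicate 4, which had the highest value (6.70). The late minus early difference of Dbp, a clock output gene, was 0.52 in HFD, -0.66 in CR and -0.04 in CANA.

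Glycolysis and fructose breakdown had 5 of 7 genes higher and a median of 0.26. The median was 0.16 without CANA replicate 3. Pklr, the liver pyruvate kinase, was 0.39 and Khk, the fructokinase, 0.28 higher. Sinusoidal endothelial markers were higher in 12 of 14 genes with a median of 0.11, which was 0.0046 within CR and 0.18 within CANA. Without 1 array it was 0.067 (CANA replicate 3), 0.068 (CR replicate 3), 0.062 (CR replicate 4) or 0.18 (CR replicate 5). Among these markers was the angiopoietin receptor gene Tek at 0.32.

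Several lists were lower by small amounts. Of 110 probe sets of cytosolic ribosomal proteins, 84 were lower and 26 higher, with a median of -0.12. These probe sets stand for 68 genes, and some of Rps12 have equal values, so the counts hold repeats. Rpl26 had a difference of -0.49 and Rps10 of -0.28, whereas Rpl38 was 0.21 higher. Of 85 probe sets of nuclear genes of oxidative phosphorylation, 69 were lower, with a median of -0.11. Cox4i1, a subunit of cytochrome c oxidase, differed by -0.30 and Atp5l, a subunit of the ATP synthase, by -0.40. No member of either list was called.

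Heat shock genes were lower in 15 of 17 probe sets, with a median of -0.20, among them Hspa1b (-0.55), an inducible HSP70. Chaperones and degradation factors of the endoplasmic reticulum were lower in 19 of 23, with a median of -0.17, among them the disulfide isomerase Pdia6 (-0.30). The list mean of these factors overlapped, from -0.39 to 0.16 over the late and from -0.15 to 0.28 over the early arrays. Its medians over the arrays were -0.006 and 0.04. CANA replicate 3 (-0.39) and CR replicate 5 (-0.38) were the lowest late arrays. Of 15 male-biased liver genes, 12 were lower, with a median of -0.17, and 3 were higher. Cyp7b1, an oxysterol hydroxylase, differed by -0.58, and Elovl3, a fatty acid elongase that is also male-biased and under clock control, by 0.72. The male-biased list mean was lowest in late CR replicate 5 (-0.45) and next lowest in early CR replicate 1 (-0.38). Its medians over the arrays were -0.002 in the late and 0.13 in the early set.

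The tissue label held in both sets. Hepatocyte markers had a median difference of -0.01 over 9 genes, and Alb, the gene of albumin, had values of 13.96 to 14.06 in the late and 13.91 to 14.09 in the early arrays. Macrophage markers differed by treatment group: the list median was -0.21 in all arrays, 0.28 within CANA (13 of 14 higher), -0.56 within HFD (14 of 14 lower) and -0.29 within CR (12 of 14 lower). Over all arrays it was -0.076 without CR replicate 5, -0.12 without HFD replicate 3 and -0.14 without HFD replicate 1. Adgre1, which encodes F4/80, differed by -0.29 and the complement gene C1qa by -0.24. In such bulk RNA, fewer cells of a type and less RNA per cell cannot be told apart. The mean of the macrophage list ran from -0.60 to 0.31 over the late and from -0.17 to 0.37 over the early arrays. Its part in the other lists was not tested.

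The single genes named for a high moderated t among those higher in the late set were of mixed function, and their differences are not the largest. Tpp1, a lysosomal peptidase, had late values of 9.86, 9.99 and 10.02 and early values of 9.11, 9.36 and 9.75, a difference of 0.56 (SE 0.09) without overlap. Pstpip2, an adaptor protein of the actin skeleton, ran from 7.15 through 7.41 to 7.62 in the late and from 6.20 through 6.86 to 7.10 in the early arrays, a difference of 0.71 (SE 0.11). Its other, dim probe set differed by -0.07. Slc25a23, a mitochondrial carrier of ATP and phosphate, had late values of 10.15, 10.39 and 10.55 and early values of 9.60, 9.94 and 10.14, a difference of 0.49 (SE 0.09). Cdc40, a splicing factor, was 0.44 higher and Olfr1269, an olfactory receptor gene, 0.49 higher. Neither overlapped between the sets.

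Retreg1, a receptor for the autophagy of the endoplasmic reticulum, ran from 8.44 through 9.02 to 9.67 in the late and from 7.62 through 8.37 to 8.82 in the early arrays, a difference of 0.66 (SE 0.12). It overlapped over all arrays and not within any treatment group. Retreg1 also differed by treatment in the same fit, with CANA above HFD by 0.89 (limma adjusted p = 0.0176, where 0.115% of probe sets passed). Ildr2, a membrane protein of the endoplasmic reticulum, was 0.71 higher by its brighter probe set and differed by -0.14 in the other.

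Astx5, an X-linked transcript of spermatogenic cells, was 1.56 higher (SE 0.28), with late values of 4.47, 5.09 and 6.57 and early values of 3.11, 3.53 and 4.88. Sly, a Y-linked gene of spermatids, had late values of 3.20, 3.80 and 5.22 and early values of 2.36, 2.47 and 2.80, below the dim limit in most arrays. Mir28b was 0.68 higher, at 4.17, 4.73 and 4.97 in the late and 3.52, 3.96 and 4.29 in the early arrays. Its mature microRNA (RefSeq, GRCm38.p6, chr8:73016523-73016543, plus strand) is shown with the seed, bases 2 to 8, in capitals, because Mir28b is the 1 microRNA among these named genes.
miR-28b: aGGAGCUCacaaucuauuuag
The array reads the hairpin transcript, and the level of the mature form was not measured.

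Whether the set difference was the same in each treatment group was not the criterion that placed the boundary. The same values of these arrays enter both, so this fit is not independent of that choice. A boundary placed from them can favour agreement between groups, and an absence of calls does not show agreement. In limma, no probe set was called for a different late minus early value in CANA and HFD (1195 at an unadjusted p under 0.05, of 23521), in CR and HFD (1063) or in CANA and CR (1210). For CANA against CR, 5 probe sets had an adjusted p under 0.10, with the smallest at 0.0697. They were Olfr130, with a difference of 1.28 (SE 0.19), and the 4 equal probe sets of Sly, with 1.78 (SE 0.27). Without CR replicate 4, 4 were called for CANA against CR. Each treatment group has 2 late arrays and 2 or 3 early ones.

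The C/D median was -1.09 in HFD, -0.69 in CANA and -0.24 in CR, with 45, 45 and 41 of the 47 probe sets lower. The H/ACA median was -0.54 in HFD, -0.42 in CANA and -0.17 in CR. For Snord72, the difference in CR exceeded that in HFD by 1.73 (limma adjusted p = 0.733), and it was the C/D probe set with the smallest such p. The cholesterol medians lay closer together, 0.73 for HFD, 0.59 for CANA and 0.53 for CR, with 21 of 22 genes higher in each. The glucocorticoid medians were 0.55 in CR, 0.38 in CANA and 0.31 in HFD.

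**Figure D4:**
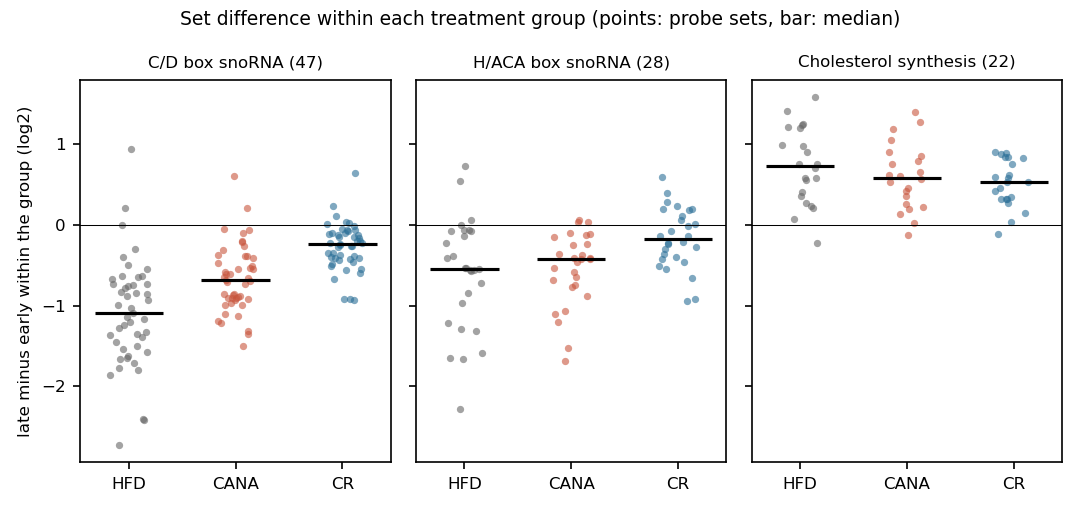
Late minus early difference (log2) within the HFD, CANA and CR groups for the C/D box snoRNAs, the H/ACA box snoRNAs and the cholesterol list; points are probe sets and bars medians. The C/D medians are -1.09, -0.69 and -0.24 from left to right, and the cholesterol medians 0.73, 0.59 and 0.53.

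Whether values also followed the serial number inside the sets was asked in a separate fit, which also depends on the boundary placed from these values. With treatment group and set as terms, limma called no probe set for a slope per serial number, with 1434 at an unadjusted p under 0.05 and a smallest adjusted p of 0.307. The smallest values belonged to Clec2h (slope 0.23 per number, SE 0.04) and Efna1 (-0.16, SE 0.03). The median slope per number was -0.09 over the C/D snoRNAs, -0.02 over the H/ACA snoRNAs and 0.04 over the cholesterol list. Over all probe sets it was 0.00. The slope is pooled over sets and groups. With rising number, the C/D list mean fell in early CANA (0.70 to -0.14), late CANA (-0.29 to -0.48) and late HFD (-0.30 to -0.57). It was 0.67 and 0.65 in early HFD and 0.35, -0.21 and 0.04 in early CR, and it rose in late CR (-0.25 to -0.17).

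The size of the set difference can be read beside the treatment difference from the same fit, which uses the same arrays. The cholesterol list had a median of 0.59 between the sets and of -0.32 between CANA and HFD. For the C/D snoRNAs these medians were -0.64 and -0.12, for glucocorticoid targets 0.39 and 0.28, and for PPAR-alpha targets 0.30 and 0.33. The CANA minus HFD medians moved with single arrays. The C/D one was -0.25 without CANA replicate 1, -0.24 without HFD replicate 4, -0.075 without HFD replicate 2, -0.069 without HFD replicate 1 and -0.033 without CANA replicate 2. The cholesterol one was -0.20 without CANA replicate 3, and the glucocorticoid one 0.18 without HFD replicate 3. For chaperones of the endoplasmic reticulum they were -0.17 and -0.28. Igfbp1, an insulin- and fasting-regulated binding protein, differed by 0.90 between the sets and by 2.59 between CANA and HFD (limma adjusted p = 0.00611). Its set difference was 0.09 in HFD, 0.71 in CANA and 1.73 in CR. The value in CR exceeded that in HFD by 1.64 (limma adjusted p = 0.999). HFD and CANA have the same number of arrays in each set, whereas CR has 3 early and 2 late arrays.

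The second bracketed number orders the arrays in the same way as the serial number within each treatment group, and differently across groups. The 4 arrays with second numbers from 4 to 9, all early, had C/D snoRNA means of 0.35 to 0.70. The 9 arrays with second numbers from 13 to 24 had means of -0.57 to 0.04, and these include the early arrays CANA replicate 2, CR replicate 2 and CR replicate 3. The other small structured RNAs split along the same line, at 0.28 to 0.52 against -0.33 to 0.04. The H/ACA snoRNAs did not, at 0.07 to 0.43 against -0.43 to 0.19. Neither did the cholesterol list, at -0.55 to -0.07 against -0.57 to 0.52, nor the glucocorticoid targets, at -0.48 to 0.05 against -0.40 to 0.62. This division of the second numbers was not tested.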

How the data were processed

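The deposited log2 values were computed by the authors with RMA in Affymetrix Expression Console, per the submitters' processing notes, which give no versions. Per the labels' protocols, RNA was extracted with TRIzol and 250 ng were labelled by the WT Plus protocol. Of 41345 probe sets in 13 arrays, the 23521 with 1 gene symbol in the platform annotation were used (22180 genes, 1082 with several probe sets), and 23328 matched RefSeq. The 1814 with several symbols and the 16010 with none were left out. RMA sets the arrays to a common distribution, so a shift of all genes together is not visible. The number of arrays limits the precision.

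The set, treatment, interaction and slope terms were fitted with limma 3.58.1 in R 4.3.3, with Benjamini-Hochberg adjustment over all 23521 probe sets and a threshold of 0.05, two-sided. The main fit had treatment group and set as terms (9 residual and 6.78 prior degrees of freedom), the interaction fit 1 mean for each treatment group and set, and the slope fit serial number beside both. Called probe sets at or above the 40th percentile of means, without overlap in each treatment group and with a proper symbol, were named by the size of the difference. For rises 6 met these conditions, so the 10 with the highest moderated t were named. Up to 5 members by moderated t were named from each list with a median beyond 0.10, beside fixed genes of clock, lipid and snoRNA biology. Genes outside the rule (snoRNA host pairs, extremes of a list, Hmgcs1, Sqle, Cyp51, Hsd17b7, Pmvk, Ly6k, and called or lowest-p genes such as Sly, Gm20877, Snord72, Olfr130, Clec2h and Efna1) were chosen after their values were seen. Of 45 gene lists, 44 had a measured gene. The members, the boundary and the lists were chosen with earlier results of these data known. A list is given by counts and medians only. The pipeline was tested on simulated data. The other settings are given in the closing section.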

Additional observations from a re-analysis of the deposited data

Results flagged for a closer look

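In 168 sets of values (a gene or list mean in the late or in the early arrays), a lone array was looked for, and 19 had an array far from the others of its set. For values without structure, chance flags about 1 in 20 such sets of values. Here each set mixes the treatment groups and treatment means were not removed, so that share does not apply directly. Treatment differences can enter the flags, and genes of a list share arrays. CANA replicate 3 lay apart in the late set in 8 of them. It was low for the cholesterol list mean (-0.23, others 0.32 to 0.52), Dhcr7 (8.04, others 8.61 to 8.83), Fdps (7.64, others 8.83 to 9.16), Nsdhl (9.07, others 9.95 to 10.06), Srebf2 (7.46, others 7.75 to 7.86), Slc25a1 (10.22, others 10.45 to 10.57) and Rny1 (6.79, others 7.25 to 7.52), and high for Acot2 (9.41, others 7.77 to 8.33). CR replicate 2 was high in the early set for Dhcr7 (8.71, others 7.77 to 8.14), Rdh11 (8.54, others 7.01 to 7.60), Tm7sf2 (9.69, others 8.65 to 9.01) and Astx5 (4.88, others 3.11 to 3.85).

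CR replicate 1 was low in the early set for the male-biased list mean (-0.38, others 0.11 to 0.26) and high for Cdkn1a (6.65, others 4.70 to 5.45). CANA replicate 1 was high in the early set for Rpl26 (5.67, others 5.24 to 5.39). In the late set, HFD replicate 4 was low for Snord49b (10.13, others 10.46 to 10.62) and Snord89 (7.56, others 7.93 to 8.14), CR replicate 4 was low for Snora34 (8.10, others 8.54 to 8.72), and CR replicate 5 was high for Fads1 (11.69, others 11.48 to 11.54).

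Among the named genes reported here, 3 had every late array on one side of every early array in a treatment group and on the opposite side in another group. The other probe sets were not searched for this, so no share over all probe sets stands beside the count. With 2 or 3 arrays in each treatment group and set, such separations can readily arise by chance. Dbp had a late minus early difference of -0.66 in CR and 0.52 in HFD (difference of the differences -1.18, limma adjusted p = 0.733). Nr1d1 had -0.86 in CR and 0.65 in HFD (-1.50, limma adjusted p = 0.999). Lyz2 had 0.22 in CANA against -0.85 in HFD and -0.33 in CR (1.07 and 0.55, limma adjusted p = 0.883 and 0.976). None of these passed the test.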

How the results depend on the processing

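Between late and early arrays, 27 probe sets were called as reported, and 5 to 137 when 1 array was left out. The count was 48 at or above the 40th percentile, 7 with 1 probe set per gene, 11 after quantile normalization, 75 with a variance trend, 12 with a robust variance, 138 at an adjusted p under 0.10, 11 without the treatment term, 59 with the serial number and 3 with the second number in place of the set. It was 129 without CR replicates 2 and 3, and 177 without these and CANA replicate 2 (added after seeing the data). It was 15, 11 and 0 within CANA, HFD and CR alone. For CANA against CR the interaction count was 0, 0 to 4 when 1 array was left out and 5 at an adjusted p under 0.10.

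With the replicate number as a block the count was 1. Of 12 pairs with the same number, 7 had deviations that correlated above 0.1 (range -0.14 to 0.29). The median r was 0.11 for these pairs and -0.05 for other pairs between groups, and 8 of 12 arrays correlated best with their own number. Nearly all replicate numbers lie in 1 set, so a pairing by number cannot be told apart from the set difference. Only replicate number 3 holds arrays of both sets, CR replicate 3 early and CANA replicate 3 and HFD replicate 3 late. The set difference in the blocked fit rests on this number. With the block, list medians were 0.96 for cholesterol, -0.22 for ribosomal proteins, 0.70 for glucocorticoid targets, 0.41 for glycolysis, -0.65 for male-biased genes, -0.33 for scaRNA and 0.59 for sinusoidal endothelium.

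Of the list medians under other settings, 453 moved by less than the spread between arrays, 25 moved further and 2 reversed. Within HFD alone the medians were -1.09 for C/D snoRNA, -0.20 for ribosomal proteins, 0.23 for fatty acid synthesis, -0.36 for heat shock, -0.56 for macrophage markers and -0.31 for scaRNA. Within CR alone they were -0.24 for C/D snoRNA, -0.17 for H/ACA snoRNA, -0.012 for ribosomal proteins, 0.013 for fatty acid synthesis, 0.11 for glycolysis and -0.027 for oxidative phosphorylation. Macrophage markers reversed within CANA alone (0.28), and scaRNA with 1 probe set per gene (0.0091). The scaRNA median was -0.37 at or above the 40th percentile. With the second number in place of the set, glucocorticoid targets were at 0.11, glycolysis at 0.033 and heat shock at -0.074 (slopes times the difference of the sets' mean numbers), and glycolysis was at 0.11 with the serial number. Other small structured RNAs were at -0.46 without the 3 early arrays. The cause of these shifts was not tested.

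With 2 or 3 arrays in each treatment group and set, an interaction must be large to pass. Centring and quantile normalization moved the median of all probe sets by 0.0209 and 0.000873. Dim probe sets carry little signal over background, among them those of Sly.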

Other observations

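Probe sets without a single gene symbol held more calls than the named ones when all 41345 were adjusted together. Of 1814 probe sets with several symbols, 44 were called higher and 6 lower between the sets, with a median difference of 0.02. Of 16010 without a symbol, 35 were called higher and 9 lower, with a median of -0.00. Of the 23521 with 1 symbol, 10 were called higher and 6 lower in that adjustment. No gene is named from these probe sets.

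Within a single treatment group, with the spread estimated from all arrays (7 residual degrees of freedom), limma called 15 probe sets between late and early arrays in CANA, all higher, 11 in HFD, with 5 higher and 6 lower, and none in CR (1234 at an unadjusted p under 0.05).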
